A study of Mus musculus with 2 samples.

Results

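Afp, Alb, Ttr, Rbp4, Trf, Fga, Fgb, Fgg, Spp2 and Ambp are 10 genes for proteins that the liver secretes into blood plasma, and they were read here in mouse yolk sac. They were chosen by name, and were 10 of the 30970 gene rows of the deposited matrices. Single cells of yolk sacs at stage E8.75 were profiled with droplet RNA sequencing, in a study of which cell types of the yolk sac form cilia. Cells of 3 yolk sac preparations were marked with CellPlex oligonucleotide tags and pooled before loading, and a matrix of counts was deposited for each. Below, the preparations labelled Ctrl1, Ctrl2 and Ctrl3 are tagged samples 1, 2 and 3. There was 1 genotype and no treatment: every sample carried Ttr-Cre/+, a Cre recombinase transgene under control of sequence from Ttr, which is among the genes described, and R26lsl-rtTA-EGFP/+, an allele at which Cre switches on rtTA and EGFP. The series text speaks of 3 embryos, but each tagged sample held both cells with Xist and cells with Y-linked transcripts (181 and 150, 259 and 177, and 217 and 344 cells), so the number of embryos behind each tagged sample was not settled. The p-values below therefore measure the spread between tagged samples only.

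The plasma proteins of an adult are made mostly by hepatocytes. Before the liver forms, the visceral endoderm of the yolk sac, the outer epithelium that faces the maternal side, secretes many of the same proteins and takes up and digests others. Albumin and alpha-fetoprotein are related proteins encoded side by side, with alpha-fetoprotein as the fetal form, and transcription factors of the HNF4 and FOXA families act on many of these genes in liver and in endoderm.

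Cells were sorted into classes by the share of their unique molecular identifiers (UMIs, which count single captured transcripts) that fell on a few gate genes. Cells with at least 0.3% of UMIs on Apob, Apom and Apoe formed endoderm, cells with at least 3% on 7 globin genes formed erythroid, cells with at least 0.04% on Cdh5, Ctla2a and Plvap formed endothelium, and cells with at least 0.03% on Hand1, Vcan and Foxf1 formed mesoderm. None of the 10 genes is a gate gene. Of 1817 deposited cells, 1740 met the limits of 500 or more genes and no more than 10% mitochondrial UMIs. Endoderm held 546 cells (169, 211 and 166 in tagged samples 1, 2 and 3), mesoderm 199, endothelium 112 and erythroid 629. A further 201 cells were in no class, and 53 cells in 2 classes were left out. The endoderm sums held 32376307 UMIs, with a median of 56824 per cell, against 7128750 in mesoderm, 4271852 in endothelium and 31813300 in erythroid. All 10 visceral endoderm markers, among them Amn, Cubn and Hnf4a, were detected in endoderm, where they summed to between 8606 and 10053 CPM over the tagged samples (UMI counts per megacount, with every tagged sample and class scaled to an equal total). In the other 3 classes they summed to between 161 and 333. Most of the endoderm sum was Apoa1, an apolipoprotein gene like the gate genes, at 6218, 7640 and 6468 CPM in tagged samples 1, 2 and 3. Not every marker was confined to endoderm: Sox17 in endothelium was at 249% of its endoderm level, and Lrp2 in mesoderm at 37.4%. Markers of other cell types were also read in endoderm. The 6 parietal endoderm markers summed to between 105 and 117 CPM there (5 detected, with Gkn2 at 0) and the 8 trophoblast markers to between 72.4 and 83.4 CPM (6 detected, with Prl3d1 and Prl2c2 at 0). The 8 blood progenitor and megakaryocyte markers summed to between 2.82 and 7.36 CPM (6 detected, with Gp9 and Gp1bb at 0).

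Alb (ENSMUSG00000029368) is on chromosome 5 of GRCm38 (GENCODE M21 annotation) from 90460897 to 90476602 and Afp (ENSMUSG00000054932) from 90490737 to 90508907, both on the plus strand with 14135 bases between them. The 3 fibrinogen chain genes share a span of 42140 bases on chromosome 3, with Fgg (ENSMUSG00000033860) from 83007724 to 83015049, Fga (ENSMUSG00000028001) from 83026076 to 83033627 and Fgb (ENSMUSG00000033831), on the opposite strand, from 83040141 to 83049863.

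The promoters of Alb and Afp are printed because these are related neighbouring genes, of which only the second was read in quantity in endoderm. Each is the 250 bases before a RefSeq start site (GRCm38.p6), read 5′ to 3′ on the strand of the gene. Capitals mark the TATA motif, TATAAA, and the CCAAT motif, both searched on either strand, so that CCAAT reads ATTGG where it lies on the opposite strand.
Alb, chr5:90460620-90460869, plus strand: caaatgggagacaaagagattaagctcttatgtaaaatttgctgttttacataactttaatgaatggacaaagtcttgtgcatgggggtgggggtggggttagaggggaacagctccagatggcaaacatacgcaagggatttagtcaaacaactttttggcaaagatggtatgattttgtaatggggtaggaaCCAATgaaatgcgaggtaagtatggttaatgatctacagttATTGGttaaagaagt
Afp, chr5:90490464-90490713, plus strand: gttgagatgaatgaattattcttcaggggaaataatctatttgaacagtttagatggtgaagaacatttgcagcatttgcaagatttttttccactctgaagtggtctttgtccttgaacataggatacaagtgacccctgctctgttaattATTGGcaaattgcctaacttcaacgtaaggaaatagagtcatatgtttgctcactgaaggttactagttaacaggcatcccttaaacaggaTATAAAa
CCAAT occurred 2 times before the start of Alb, at 56 to 52 bases upstream and, on the opposite strand, at 15 to 11. Before Afp it occurred 1 time, at 98 to 94 bases upstream on the opposite strand, and TATAAA lay at 7 to 2 bases upstream. These distances are from the RefSeq starts, 90460870 for Alb and 90490714 for Afp. The GENCODE starts lie further downstream, at 90460897 and 90490737, so the distances depend on the annotation. The bases between the RefSeq and GENCODE starts were not searched. Alb had no match to TATAAA, and the promoters of Fga, Fgb, Fgg and Spp2 had no match to either motif in these windows. Of the 8 genes with a RefSeq promoter in the table used, 2 had TATAAA (Afp and Rbp4), against 12.4% of 32851 promoters of the same length. CCAAT was in 4 of the 8 (Alb, Afp, Ambp and Rbp4) and in 33.8% of all promoters. The 8 genes had 9 promoters and were counted by a match in any of them, whereas the percentages count single promoters. Rbp4 had CCAAT in 1 promoter and TATAAA in the other. These matches describe letters and not binding. Alb, the least abundant of the 10 genes in endoderm, and Afp, the third by level, both carried CCAAT.

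Ttr and Rbp4 were by far the most abundant of the 10 genes. Ttr encodes transthyretin, which carries thyroid hormone and holds the retinol-binding protein in the circulation, and Rbp4 encodes that retinol-binding protein. In endoderm of tagged samples 1, 2 and 3, Rbp4 was at 8620, 11437 and 10832.5 CPM. The values for Ttr were 8225, 10572 and 10104 CPM. Both genes were lowest in tagged sample 1, and all endoderm values lay far above all values of the other classes, of which the highest was 250.6 CPM for Ttr and 244 CPM for Rbp4, both in endothelium of tagged sample 2. With each endoderm cell thinned to 20000 UMIs, all 508 cells deep enough had a UMI of both genes. The 2 genes together held 85.9% ± 2.78 of all UMIs of the 10 genes in endoderm (SD, n = 3 tagged samples).

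Ttr (ENSMUSG00000061808) is on chromosome 18 from 20665280 to 20674321 and Rbp4 (ENSMUSG00000024990) on chromosome 19 from 38116629 to 38125281. The Cre transgene named for Ttr has a row of its own in the matrices. It held 3 UMIs in endoderm (1, 0 and 2), 2 in erythroid and 0 in mesoderm and endothelium, beside 317209 UMIs of Ttr itself in endoderm. At these counts the row says nothing about which class carried the transgene's RNA. Which part of the transgene the row covers is not stated in the labels or headers.

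Afp, the fetal albumin relative, was at 1124, 2558 and 2574 CPM in endoderm of the 3 tagged samples. Tagged sample 1 was well below the other 2, and even its value was far above the range of 33.2 to 74.7 CPM over the 9 sums of the other classes. Per kilobase of transcript, Rbp4 stood at 8869 ± 1277 CPM and Ttr at 8123 ± 1047. This difference was within the spread over tagged samples, though Rbp4 was the higher in each of them. Afp followed at 1011 ± 404 CPM per kilobase (SD, n = 3). Spp2, at 363 ± 125, came next and lay below Afp in each tagged sample. A droplet library that reads transcript ends need not scale with length. This order and the per-kilobase values of other genes below are therefore descriptions, and the order of genes can depend on the division. Undivided, Fgb had a mean of 366 CPM in endoderm, above Trf at 344 and Spp2 at 337, with overlapping ranges. Per kilobase, Fgb had the lowest mean of these genes.

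Alb, the gene for the main protein of adult plasma, was almost undetected. Endoderm held 1 Alb UMI in 32376307, in tagged sample 3, and 0 in tagged samples 1 and 2. A pooled level of 0.0309 CPM compares with 2086 ± 832 CPM for its neighbour Afp (SD, n = 3). The 1 endoderm cell with an Alb UMI also held 112 Afp, 548 Ttr and 592 Rbp4 UMIs, so it was a cell with the usual genes of its class. After thinning, 0 of 508 endoderm cells had an Alb UMI, which allows up to 0.591% of cells to hold a UMI after thinning. On the other side of Afp, Afm, which encodes another albumin relative, had 8 UMIs in endoderm (1, 4 and 3) and 0 in the 3 other classes. Ankrd17, a protein-coding neighbour before Alb, was at 98.8 ± 6.86 CPM in endoderm and 114 ± 14.1 in mesoderm. Gm9958, annotated as protein-coding between Ankrd17 and Alb, has no level given here. In this stretch of chromosome 5, Afp alone of the albumin-related genes was read at more than a few UMIs.

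Most Alb UMIs came from mesoderm. Mesoderm held 10 (0, 4 and 6 in tagged samples 1, 2 and 3) in 8 cells, with at most 2 per cell. These 8 cells had between 1 and 4 Afp UMIs each and between 2 and 14 Ttr UMIs, against the 548 Ttr UMIs of the endoderm cell above, and all 8 had Hand1 UMIs. Erythroid held 1 Alb UMI, in a cell that Scrublet called a doublet and that had 88 Afp UMIs, and endothelium held 0. Cells in no class held 1, in a cell with 0.0298% of its UMIs on the mesoderm gate genes, just under the limit of 0.03%. The pooled mesoderm level was 45.4 times the endoderm level (95% exact counting interval 6.46 to 1971). Without tagged sample 3, endoderm had 0 Alb UMIs and Alb was at least 6.51-fold higher in mesoderm, taking 3 counts over the whole class as the floor. Without tagged sample 2 the ratio was 23.7 (2.87 to 1088). An exact two-sided permutation test that keeps the pairs of tagged samples gave p = 0.5, where 0.25 is the smallest that 3 pairs allow, since tagged sample 1 had 0 in both classes. Alb did not pass the low-count filter of the edgeR fit. With no such filter it was called lower in endoderm (log2 difference -4.50, edgeR adjusted p = 0.000529). That p rests on 10 UMIs in mesoderm and 1 in endoderm and is not read as a test between tagged samples. In the same unfiltered fit the edgeR adjusted p of Afp against mesoderm fell from 1.78e-07 to 2.00e-113. The log2 difference of Afp hardly moved, from 5.60 to 5.69. Intervals and floors cover counting error only.

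**Figure D1:**
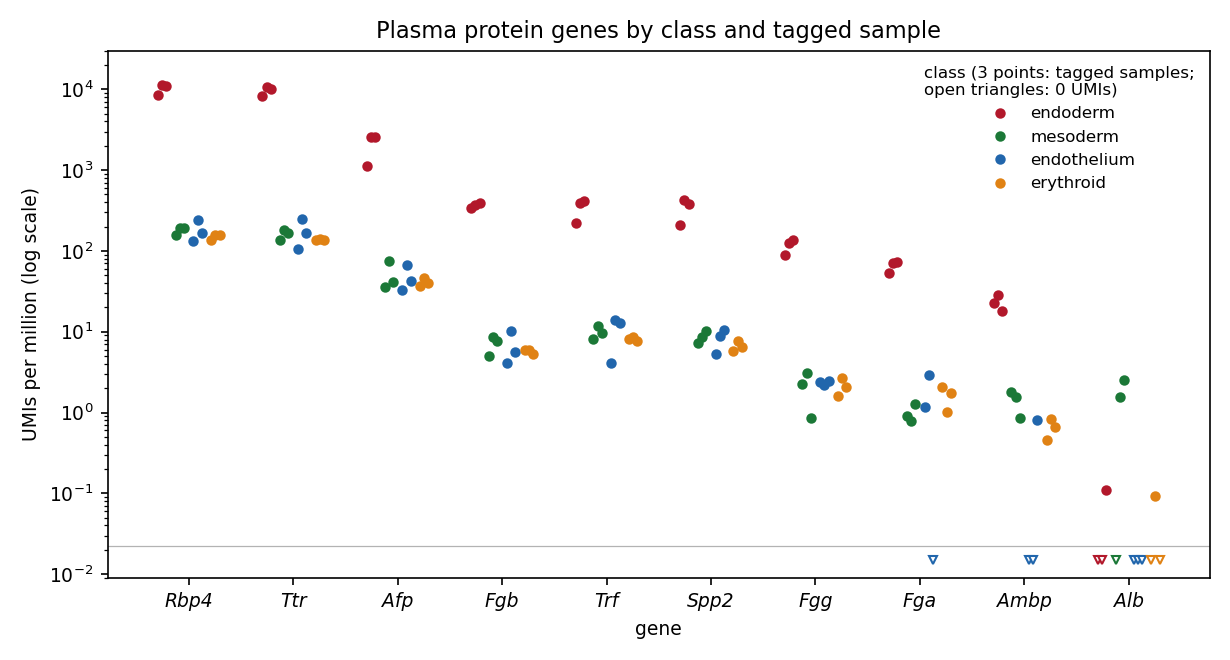
CPM (log axis) of the 10 genes in 4 classes, with 1 point for each of 3 tagged samples and open triangles at the foot for sums with 0 UMIs. The endoderm points of 9 genes lie above all points of the other classes, with Rbp4 and Ttr between 8225 and 11437 CPM, whereas Alb has 1 endoderm UMI and its highest points are in mesoderm.

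Trf encodes transferrin, the iron carrier of plasma. The gene (ENSMUSG00000032554) is on chromosome 9 from 103204001 to 103230444. Its endoderm level was 221, 389 and 421 CPM in tagged samples 1, 2 and 3. Tagged sample 1 was again lowest, and the other classes ranged from 4.16 to 14.0 CPM. Per kilobase Trf was at 134 ± 41.7 CPM (SD, n = 3), which overlapped Fgb at 96.2 ± 6.71.

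Fgb, Fgg and Fga encode the beta, gamma and alpha chains of fibrinogen, the clotting protein that contains the 3 chains in equal number. In endoderm of tagged samples 1, 2 and 3, Fgb was at 338, 373 and 388 CPM, Fgg at 87.9, 127 and 135 CPM, and Fga at 53.7, 70.9 and 73.6 CPM. Per kilobase the levels were 96.2 ± 6.71, 67.0 ± 14.5 and 25.5 ± 4.17 CPM (SD, n = 3), and this order held without overlap between tagged samples. The 3 genes thus had unlike levels of RNA at 1 locus. Of the nearest other genes there, Plrg1 was at 36.6 ± 2.87 CPM in endoderm and above 20 in every class mean, Lrat had 4 UMIs in endoderm and Dchs2 had 0.

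Spp2 encodes secreted phosphoprotein 24, a bone and plasma protein (ENSMUSG00000026295, chromosome 1 from 88406961 to 88426438). It was at 207, 428 and 377 CPM in endoderm of the 3 tagged samples, with tagged sample 1 lowest, and between 5.34 and 10.6 CPM elsewhere. Ambp encodes the precursor of alpha-1-microglobulin and bikunin, a subunit of the inter-alpha-trypsin inhibitors (ENSMUSG00000028356, chromosome 4 from 63143275 to 63154799). Its endoderm level was 22.6, 28.3 and 17.9 CPM. Per kilobase this was 18.1 ± 4.12 CPM, the lowest mean of the 9 genes read in quantity, although its range overlapped that of Fga. It was the only 1 of the 9 whose lowest value was not in tagged sample 1. The other classes held 10, 1 and 22 Ambp UMIs (mesoderm, endothelium, erythroid).

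Together the 10 genes took 1.89%, 2.60% and 2.49% of all endoderm UMIs in tagged samples 1, 2 and 3 (2.33% ± 0.382, SD, n = 3). In mesoderm, endothelium and erythroid they took 0.0423% ± 0.00636, 0.0431% ± 0.0158 and 0.0354% ± 0.00194.

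The counts of each class were summed within a tagged sample, and endoderm was compared with each other class by edgeR's quasi-likelihood test with Benjamini-Hochberg adjustment at 0.05 over all genes tested. Alb was not tested, and the other 9 genes were called higher in endoderm in each of the 3 comparisons. Of all genes tested, 33.1% were called higher in endoderm than in mesoderm and 30.7% lower, 31.9% and 28.7% against endothelium, and 41.8% and 36.2% against erythroid. The filter keeps a gene that is high in either class, and genes such as Fga, with 7 UMIs in mesoderm, entered through endoderm. The count of 9 and the p-values of such genes are therefore descriptions. The classes were also defined by expression of 3 apolipoprotein genes that endoderm makes.

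Against mesoderm, Fga had the highest log2 difference of the 9, 6.29 (SE 0.30, edgeR adjusted p = 1.39e-08), and Ambp the lowest, 4.27 (SE 0.35, edgeR adjusted p = 1.01e-06). Ttr was higher by 6.16 and Rbp4 by 6.07, and Afp by 5.60 log2 units. The median of the 9 was 5.92, beside 0.02 for all 11006 genes tested. Against endothelium the values ran from 5.25 for Trf to 6.62 for Ambp, with a median of 5.76 beside 0.05 for all genes, and the largest edgeR adjusted p was 1.06e-06. The Ambp value rests on 1 endothelium UMI, in tagged sample 3. As a pooled ratio it was 102 (exact counting interval 18.2 to 4023). Without tagged sample 3, Ambp was at least 26.5-fold higher in endoderm, against the same floor of 3 counts over the class. Against erythroid the 9 genes were higher by between 4.83 (Ambp) and 5.92 (Ttr) log2 units, with a median of 5.44 beside 0.05, and the largest edgeR adjusted p was 1.68e-08. In all 3 comparisons each of the 9 genes was higher in endoderm in 3 of 3 tagged samples. Scaling by library size alone moved the median of all genes against mesoderm from 0.02 to -0.22, so that 37.6% of calls were higher in place of 51.9%, and the 9 genes were still called higher.

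Outside endoderm the 9 genes kept a low and nearly even fraction of their endoderm level. For each gene the level in another class was divided by the endoderm level of the same tagged sample. In mesoderm the mean fraction ran from 1.51% (Fga) to 6.1% (Ambp) with a median of 1.91%. It ran from 1.51% (Ambp) to 2.86% (Trf) with a median of 2.08% in endothelium, and from 1.45% (Ttr) to 2.89% (Ambp) with a median of 2.12% in erythroid. Apart from Ambp in mesoderm, which rests on 10 UMIs, no class mean was above 3.01%. Marker genes of visceral endoderm showed medians of 3.98%, 2.52% and 2.27% in the same 3 classes. Several of them stood apart, such as Lrp2, a receptor for endocytosis, at 37.4% in mesoderm, and Sox17 at 249% in endothelium. Whether free RNA in droplets gave the low levels outside endoderm was not tested.

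The share of cells with a UMI shows the same spread of signal. After thinning to 20000 UMIs, 97.4% of 508 endoderm cells had an Afp UMI (exact 95% interval 95.7 to 98.6), and so did 58.0% of mesoderm, 50% of endothelium and 50.3% of erythroid cells. Unthinned, at median depths of 56824, 34959, 36009.5 and 47771 UMIs, the shares were 98.7%, 76.9%, 76.8% and 81.4%. The erythroid share is given for comparison, and a share at that level in another class is not read as expression. What gave the erythroid share was not tested. Thinned endoderm shares of the other genes were 98.2% for Fgb, 93.7% for Trf, 88.2% for Spp2, 79.7% for Fgg, 65.4% for Fga and 33.3% for Ambp. In erythroid cells the same 6 genes were found in 10.4%, 13.5%, 10.7%, 3.73%, 2.92% and 1.46% of cells. Thinning left out 38 endoderm, 25 mesoderm, 28 endothelium and 13 erythroid cells.

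Tagged sample 1 had the lowest endoderm level for 8 of the 9 genes. Relative to the mean of tagged samples 2 and 3, Afp was at 0.438, Spp2 at 0.514 and Trf at 0.547. The clotting chains Fgg, Fga and Fgb were at 0.671, 0.743 and 0.889, Rbp4 at 0.774, Ttr at 0.796 and Ambp at 0.976. For comparison, 34.1% of the 5098 genes with a mean of at least 20 CPM in endoderm were lowest in tagged sample 1, their median ratio was 1.01, 2.98% were under 0.75 and 0.255% (13 genes) were at most 0.5. With 1 preparation set against the others this has no test, and the 9 genes are not independent of each other. Outside endoderm the share of all genes lowest in tagged sample 1 was not taken, so the values there are given without a count. In erythroid cells the ratio was 0.856 for Afp, 0.677 for Fgg, 0.810 for Spp2, 0.863 for Rbp4 and 0.982 for Ttr. Ttr in erythroid was at 136.43 CPM in tagged sample 1 and 136.495 in tagged sample 3, nearly equal. Ambp, at 0.620, rests on 22 erythroid UMIs. Trf was at 0.991 without being lowest, and Fgb and Fga were at 1.06 and 1.51. Afp was at 35.5, 74.7 and 41.5 CPM in mesoderm of tagged samples 1, 2 and 3, at 33.2, 67.1 and 42.3 in endothelium and at 37.1, 46.2 and 40.4 in erythroid. The summed share of the 10 genes was lowest in tagged sample 1 in each of the 4 classes: 1.89%, 2.60% and 2.49% of UMIs in endoderm, 0.0355%, 0.0481% and 0.0434% in mesoderm, 0.0286%, 0.0600% and 0.0406% in endothelium, and 0.0333%, 0.0371% and 0.0358% in erythroid. Ttr and Rbp4 made up 85.9% of this sum in endoderm. No like share was taken for other sets of genes, so this order is a description.

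The lower levels of tagged sample 1 went along with some endoderm genes and not with others. Apoa4, an apolipoprotein of visceral endoderm, was at 476, 697 and 852 CPM in tagged samples 1, 2 and 3. Amn, part of the cubilin receptor, was at 638, 653 and 669 CPM, and Cubn at 839, 709 and 677. Parietal endoderm markers summed to 105, 114 and 117 CPM and trophoblast markers to 72.4, 75.5 and 83.4 CPM in endoderm of the 3 tagged samples, and mesoderm markers to 56.1, 56.8 and 54.6. Median depth was 52675, 63458 and 53031.5 UMIs per cell, and the median mitochondrial share 2.53%, 2.33% and 2.44%. Under 6 other choices of cells (depth, gene and mitochondrial limits, doublet calls, and gates moved up or down), the Afp ratio stayed between 0.432 and 0.469, that of Spp2 between 0.510 and 0.562 and that of Trf between 0.543 and 0.584. Stage or handling of the preparation was not tested.

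**Figure D2:**
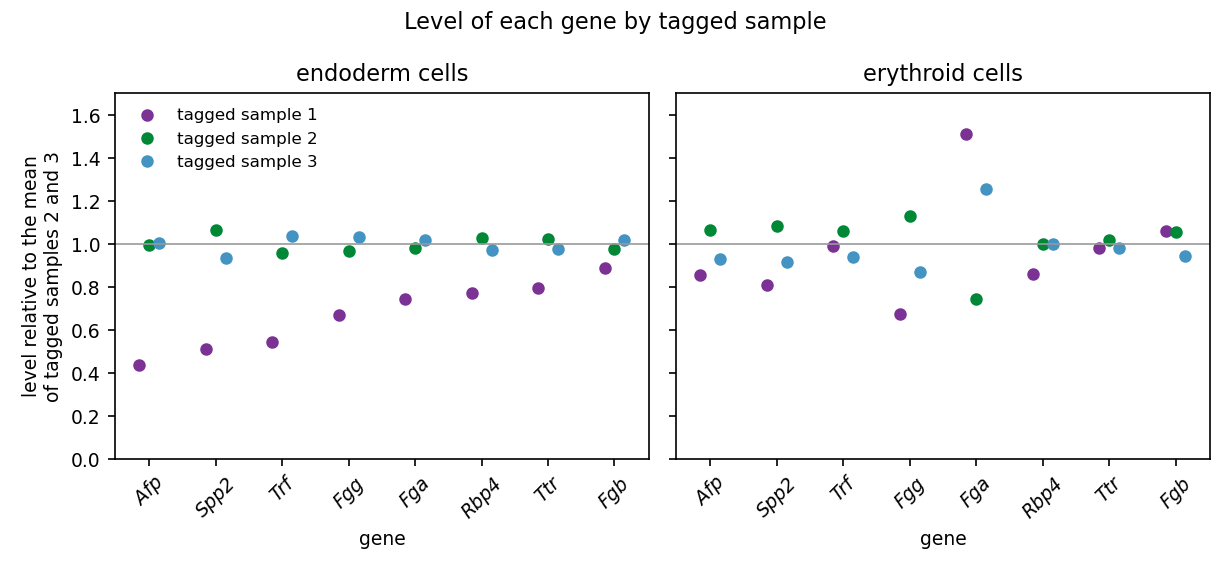
Level of 8 genes in each tagged sample, divided by the mean of tagged samples 2 and 3, in endoderm (left) and erythroid cells (right), with 1 point per tagged sample. In endoderm tagged sample 1 lies lowest for all 8 genes, from 0.438 for Afp to 0.889 for Fgb. In erythroid cells it is not lowest for Trf, Fga and Fgb, and the Fga points rest on 49 UMIs in all.

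Cells within endoderm varied widely for some genes and little for others. After thinning, Rbp4 had the narrowest spread, with a coefficient of variation over cells of 39.3%, 28.1% and 28.9% in tagged samples 1, 2 and 3. Its lowest cell had 23 UMIs. For Afp the coefficient was 91.1%, 64.1% and 61.9%, and cells ran from 0 to 101, 0 to 151 and 0 to 165 UMIs of 20000. The median cell had 19.5, 46 and 45 Afp UMIs, and the cell at the 10th percentile had 1, 8.4 and 16. Tagged sample 1 therefore had both a lower middle and a longer foot of cells with next to no Afp. Spp2, at a lower level, had coefficients of 116%, 69.0% and 80.7%, and Fgb had 60.2%, 49.3% and 51.2%. The mean thinned cell had 3.99, 8.19 and 7.35 UMIs of Spp2 and 6.76, 7.37 and 7.63 of Fgb, so the 2 genes were at like levels in tagged samples 2 and 3 but not in tagged sample 1. In tagged samples 2 and 3 Spp2 had the higher coefficient at these like levels.

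**Figure D3:**
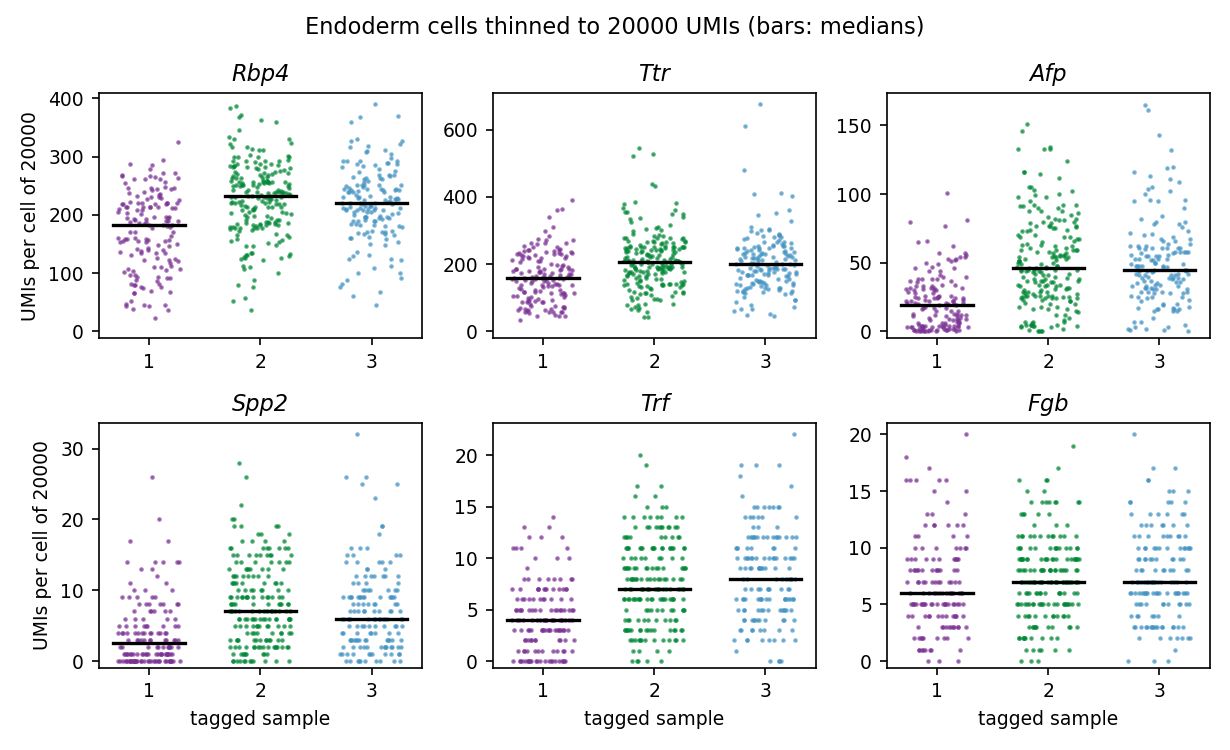
UMIs per endoderm cell after thinning to 20000 UMIs for 6 genes, by tagged sample (150, 203 and 155 cells), with 1 point per cell, jittered sideways, and bars at the medians. The Afp median is 19.5 in tagged sample 1 against 46 and 45 in the others, while every cell has Rbp4 and Ttr.

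Levels of the 9 genes went together from cell to cell. Spearman correlations were taken over the thinned endoderm cells of each tagged sample for the 36 pairs without Alb, which had no UMI left. The median over pairs was 0.455, 0.353 and 0.266 in tagged samples 1, 2 and 3 (0.358 ± 0.0949, SD, n = 3). All 36 pairs had a mean above 0, and 34 were above 0 in each of the 3 tagged samples. The share of pairs above 0 among other genes in the same cells was not taken, so these counts have no background. The cells share a library, a depth and a gate, so these are descriptions with no test.

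Afp and Spp2 had the highest correlation of the 36 pairs, 0.711 on average (0.787, 0.669 and 0.678 in tagged samples 1, 2 and 3). Ttr and Rbp4, whose products travel together in plasma, followed at 0.666 and ranged from 0.483 to 0.819. Ttr and Spp2 were at 0.635. The fibrinogen genes, though neighbours with a joint product, had lower values among themselves: 0.298 for Fga and Fgg, 0.270 for Fgb and Fgg and 0.176 for Fga and Fgb. Each of Fgb, Fgg and Fga had a higher mean correlation with Afp (0.484, 0.425 and 0.325) than with either of the other 2 chains. For Fga this did not hold in tagged sample 1 (0.393 with Afp, 0.458 with Fgg) or tagged sample 2 (0.281 and 0.283). Low counts per cell hold a rank correlation down, and Fga had a median of 1 UMI per thinned cell in each tagged sample. Fgg had medians of 1, 2 and 2, against 19.5, 46 and 45 for Afp, so these pairs are not compared at like counts. Ambp, with a median of 0, was at most 0.188 with any other gene, and Fgg with Ambp was the lowest pair at 0.0498.

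**Figure D4:**
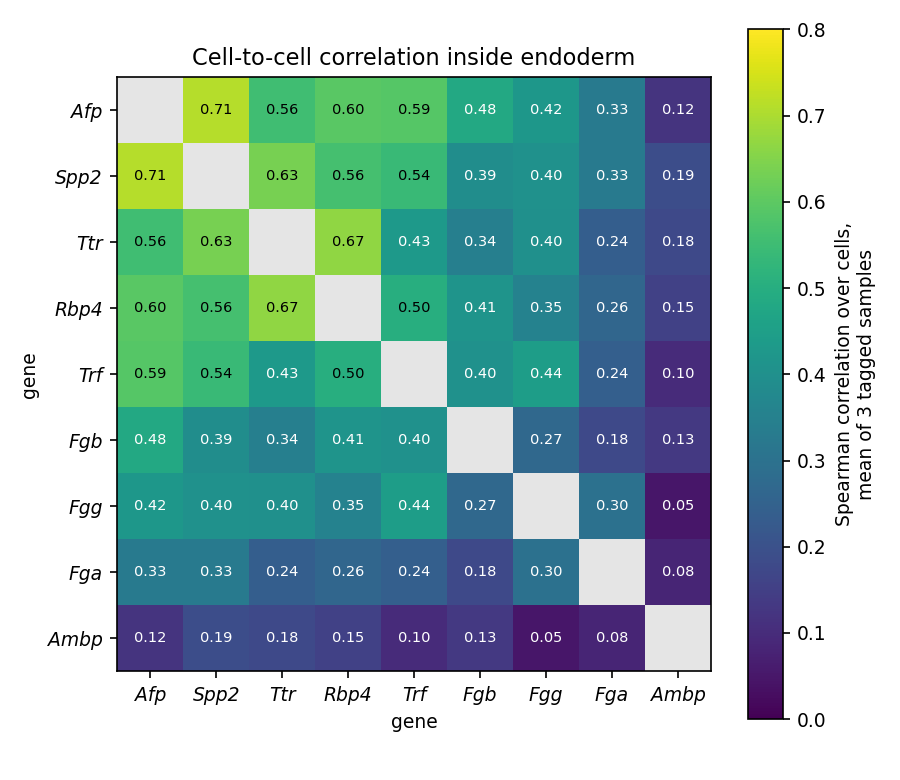
Spearman correlation over endoderm cells thinned to 20000 UMIs for each pair of 9 genes, as the mean of 3 tagged samples (color, 0 to 0.8, and printed value). Pairs among Afp, Spp2, Ttr, Rbp4 and Trf run from 0.433 for Ttr with Trf to 0.711 for Afp with Spp2, a range that Afp with Fgb (0.484) and Trf with Fgg (0.444) overlap, and Ambp is the lowest partner of each other gene.

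A score was formed for each cell as the mean of the standardized log values of the 9 genes. It had a Spearman correlation of 0.168, 0.123 and 0.0177 with the cell's total UMIs before thinning and of 0.0297, -0.0427 and 0.0184 with its mitochondrial share. With the share of UMIs on the gate genes Apob, Apom and Apoe it was 0.643, 0.499 and 0.434. The cells richest in the 9 genes were therefore also rich in the apolipoproteins that defined the class.

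Among 4803 other genes at 20 or more CPM in endoderm of each tagged sample, the median correlation with the score was -0.0175. The 10 highest were Apoa1 (0.613), Apoa2 (0.579), Bex2 (0.577), S100g (0.575), Trap1a (0.486), the gate gene Apom (0.477), Gpx3 (0.472), the gate gene Apoe (0.443), S100a10 (0.395) and Fxyd2 (0.391), each as a mean over 3 tagged samples. Of these, Apoa1, Apoa2, Apom and Apoe encode apolipoproteins and Gpx3 the glutathione peroxidase of plasma, while S100g encodes a calcium-binding protein of absorptive epithelia. The 5 lowest were H2az1 (-0.434), Npm1 (-0.380), Uck2 (-0.365), Odc1 (-0.320) and Fabp3 (-0.319). H2az1 encodes a histone variant and Npm1 a nucleolar protein, and Odc1 encodes the enzyme that begins polyamine synthesis. In endoderm Apoa2 was at 943, 1964 and 1526 CPM and thus lowest in tagged sample 1, as most of the 9 genes were. Npm1 was at 4391, 3511 and 3382 CPM and so highest there.

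Other genes of the same kind were read from lists of liver and secretion genes. In every list the filter keeps a gene high in either class, so counts of called genes are descriptions. For all genes tested, 31.9% were called higher and 28.7% lower in endoderm than in endothelium. Against erythroid these shares were 41.8% and 36.2%. Of 58 other secreted plasma proteins listed, 57 were in the matrices and 14 were at 0 in endoderm, among them F9 and F11 (clotting factors), Apoh and Orm1. Against mesoderm 14 passed the filter, which again keeps a gene high in either class, of which 11 were called higher in endoderm and 1 lower, beside 33.1% and 30.7% of all genes. The median log2 difference was 4.61, or 4.15 with Gc and Serpina1b, which had 0 UMIs in mesoderm, put at their bound against the floor of 3 counts. Against endothelium 12 were higher and 2 lower of 14, and against erythroid 16 higher and 0 lower of 17, with medians of 4.64 and 5.06 (3.84 and 4.83 with such genes at their bound). Serpinc1, the gene for antithrombin, was at 30.3, 30.3 and 31.0 CPM in endoderm and 1.13 ± 0.495 in mesoderm. Serpinf2, for the plasmin inhibitor, was at 51.5 ± 9.31 CPM in endoderm with 5 UMIs in mesoderm, and Mbl2, a lectin of the complement system, at 32.3 ± 6.86 CPM, also with 5 UMIs in mesoderm (SD, n = 3). The gene that went against the list was Masp1, a protease of the complement lectin pathway, at 0.499 ± 0.308 CPM in endoderm and 43.2 ± 9.32 in mesoderm (log2 difference -6.00, edgeR adjusted p = 2e-08). The 2 genes lower than in endothelium were F5 and Pros1, a clotting cofactor and the gene for protein S, by -3.25 and -1.49 log2 units (edgeR adjusted p = 7.53e-07 and 7.59e-05).

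Transcription factors of liver and endoderm numbered 25, of which 15 passed the filter against mesoderm. Of these, 10 were called higher in endoderm and 3 lower, beside 33.1% and 30.7% of all genes, with a median of 3.03. Creb3l3, a liver factor that responds to stress of the endoplasmic reticulum, was at 125, 140 and 125 CPM in endoderm against 3.60 ± 1.65 in mesoderm (log2 difference 5.39). Hnf4a was at 80.9, 63.9 and 70.3 CPM against 1.94 ± 1.03, and Foxa2 at 30.0, 30.8 and 30.8 against 0.941 ± 0.869. The genes lower in endoderm were Zfhx3 (-1.78), a factor known to repress Afp in liver cells, Nr2f2 (-1.31) and Gata6 (-1.01), with edgeR adjusted p = 1.27e-06, 1.81e-05 and 5.17e-05. Zfhx3 was at 25.1 ± 4.10 CPM in endoderm and 103 ± 14.7 in mesoderm (SD, n = 3). Against endothelium 11 were higher and 3 lower (Sox17, Nr5a2 and Zhx2) of 17, with a median of 1.31, and against erythroid 15 were higher and 0 lower of 16, with a median of 5.04.

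Of 22 listed enzymes and other genes of mature hepatocytes, 13 had at least 1 UMI in endoderm and 9 were at 0, among them Cps1 and Tat, which serve urea synthesis and tyrosine breakdown, and Cyp7a1, the entry to bile acid synthesis. Of the 6 that passed the filter against mesoderm, 4 were higher and 1 lower in endoderm, with a median of 4.21. The shares of all genes were 33.1% and 30.7%. Ass1, a urea cycle enzyme, was at 152, 265 and 267 CPM against 13.4 ± 6.96, and its correlation with the score of the 9 genes was 0.323. Otc, another urea cycle enzyme, had 245 UMIs in endoderm and 1 in mesoderm (pooled ratio 53.9, exact counting interval 9.59 to 2139). Tdo2, the liver enzyme of tryptophan breakdown, was the exception, at 2.20 ± 1.20 CPM in endoderm and 336 ± 94.7 in mesoderm (log2 difference -6.89, edgeR adjusted p = 4.61e-09). Against endothelium 4 of 6 were higher and 0 lower, and against erythroid 7 of 8 and 0, with medians of 4.05 and 4.32.

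Receptors and partners of the plasma proteins numbered 18. Of the 9 tested against mesoderm, 8 were higher in endoderm and 1 lower, with a median of 4.03. Among the 9, F2 and Itih3 are also in the list of other secreted plasma proteins. Amn, Cubn and Lrp2 are also among the visceral endoderm markers above, so this list is not a separate reading. The shares of all genes were 33.1% and 30.7%. Amn and Cubn, which together form a receptor that takes up transferrin and other plasma proteins, were at 653 ± 15.5 and 742 ± 86.1 CPM in endoderm against 15.9 ± 5.35 and 15.6 ± 5.50 in mesoderm. Dab2, their adaptor, was at 1258 ± 105 against 115 ± 19.4 CPM (SD, n = 3). Tfrc, the transferrin receptor, was the exception, at 26.9 ± 2.41 CPM in endoderm and 52.5 ± 7.06 in mesoderm (log2 difference -0.72, edgeR adjusted p = 0.000508), and at 219 ± 42.1 in erythroid cells. Stra6, the receptor for the retinol-binding protein, was at 0 in endoderm and had 19 UMIs in mesoderm, 18 of them in tagged sample 2. Against endothelium 8 were higher and 2 lower of 11, and against erythroid 8 higher and 3 lower of 11, with medians of 4.15 and 5.09. Itga2b and Itgb3, subunits of the fibrinogen receptor of platelets, were lower in both, and Tfrc was lower against erythroid (-3.26 log2 units, edgeR adjusted p = 1.76e-09).

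General secretory pathway genes had a small median difference against mesoderm and endothelium and a larger one against erythroid. All 32 listed passed the filter, and against mesoderm 20 were called higher in endoderm and 4 lower, with a median of 0.31 log2 units. The shares of all genes were 33.1% and 30.7%. Sec11c, a subunit of the signal peptidase, stood apart at 132, 130 and 144 CPM against 37.7 ± 5.08 (log2 difference 2.09, edgeR adjusted p = 2.62e-08). Ssr4 and Ssr2, of the translocon-associated complex, were higher by 0.86 and 0.68, while its member Ssr3 was lower by -0.37, as were the folding enzyme Pdia3 (-0.35), Sdf2l1 (-0.35) and Pdia6 (-0.22). Scaling by library size shifts all differences against mesoderm by about the 0.24 log2 units by which it moves the median of all genes, so the small differences of this list depend on the scaling. The same change was 0.12 against endothelium and -0.21 against erythroid. The counts were 18 and 3 against endothelium and 28 and 1 against erythroid, with medians of 0.28 and 1.28.

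**Figure D5:**
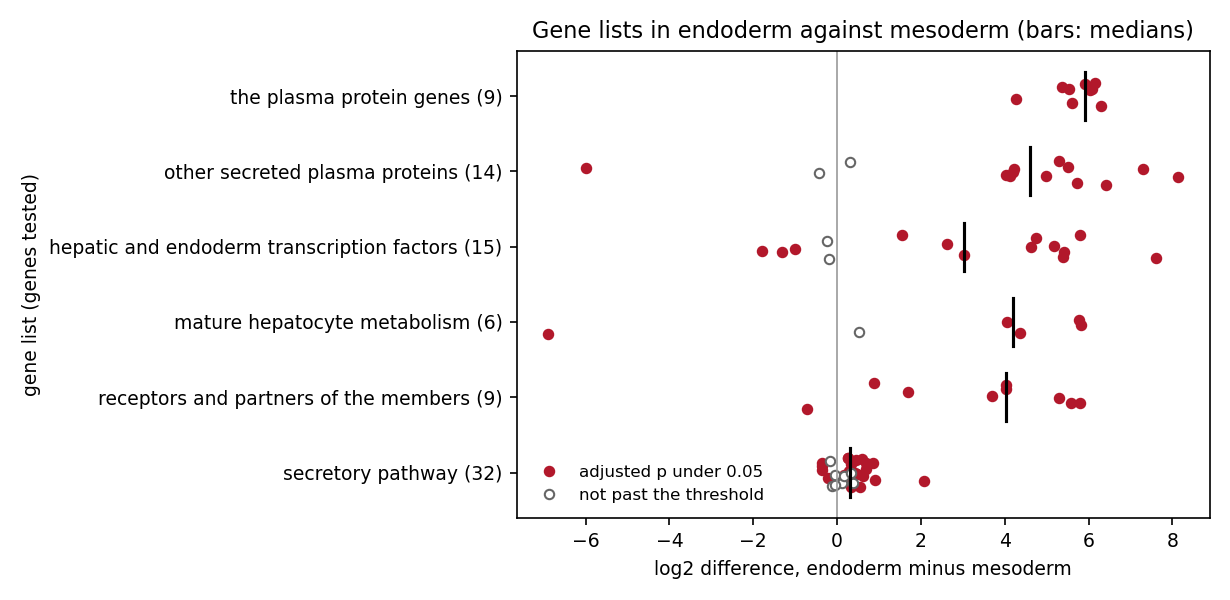
Log2 difference between endoderm and mesoderm (edgeR) for 9 of the 10 plasma protein genes and for the tested genes of 5 lists, with 1 point per gene, filled where the adjusted p is under 0.05, and bars at the medians. The 9 genes span 4.27 to 6.29, Masp1 and Tdo2 stand far to the left of their lists, and secretory pathway genes centre on 0.31.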

How the data were processed

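Per the labels' protocols, yolk sac cells were tagged with CellPlex oligonucleotides, pooled and run on 10x chips. The values in the deposited matrices are raw UMI counts, and their headers name Cell Ranger 6.1.2. GRCm38 (mm10) is the build named in the submitters' processing notes. How cells were assigned to tags is stated in neither labels nor headers. There were 3 matrices, with 30970 gene rows and 6 tag rows, and 0 barcodes were shared between them. Gene UMIs summed to 22007477, 32890946 and 33114758 in tagged samples 1, 2 and 3.

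The genes, lists, classes and markers were chosen with earlier results of these data known. Cells passing 500 genes and 10% mitochondrial UMIs were classed by gate shares, and cells in 2 classes were left out as possible doublets. Scrublet (scanpy 1.11.5) called 9, 32 and 33 cells, which were removed only in an alternative. Cells are not replicates, so the counts of each class were summed within a tagged sample and tested in edgeR 4.0.16 (TMM scaling, filterByExpr, glmQLFit, glmQLFTest, two-sided) on R 4.3.3. With 3 tagged samples per class, their number limits the precision.

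Classes of 1 tagged sample share its number, so the numbers pair the sums by design. Deviations of same-numbered sums correlated across genes by 0.0507, 0.0882 and 0.00768 for mesoderm, 0.0932, 0.0427 and 0.0429 for endothelium, and 0.0996, 0.113 and 0.0536 for erythroid, where genes are not independent replicates.

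The named genes were the 10 genes, the 3 genes of each list with the smallest p in each direction against mesoderm, list genes that went against their list, and the 10 genes most and 5 least alike by correlation. Not every gene that the rule names is reported here. The fit was tested on simulated data with 200 changed genes: with mesoderm, 90.7% of 2-fold and 100% of 4-fold changes were recovered among 10642 genes run, with 12 false calls. Every simulated gene had the same spread between sums, and only well-counted genes were changed. In the real data 33.1% of genes were called higher and 30.7% lower against mesoderm. The simulation therefore does not describe genes with few UMIs, such as Fga and Ambp outside endoderm, or changes on that scale. Alternatives were the replicate block, DESeq2 1.42.0, other scalings, no filter, a joint fit, thinned sums, other cell limits, doublet calls, gates and each tagged sample left out. Cell settings for tagged sample 1 and for Alb were chosen after seeing the data.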

Additional observations from a re-analysis of the deposited data

How the results depend on the processing

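Each comparison was refitted under 17 other settings, and 630 of 632 alternative values stayed on the same side of the threshold or within the limits set for a shift. All 459 differences of the 9 tested genes kept their direction and their call. The settings refit overlapping counts, and the smallest main difference of these genes was 4.27 log2 units, so an unchanged call says little. The replicate block, which keeps the pairing of tagged samples, changed no call of these genes: it called 3601 genes higher and 3343 lower against mesoderm, 3399 and 3051 against endothelium, and 4674 and 4077 against erythroid. The median correlation of the 9 genes in endoderm was 0.472 without thinning, against 0.358, where the cause was not tested. With sums thinned to the smallest, 2198 genes were called higher against endothelium, against 3407, with 7953 genes tested in place of 10682. Library size scaling gave 2754 higher and 4578 lower calls against mesoderm, against 3644 and 3379. The fitted difference of Ambp against endothelium ran from 5.86 without tagged sample 2 to 10.41 without tagged sample 3, where endothelium has 0 UMIs. Depth limits Alb and, outside endoderm, Ambp and Fga.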

Other observations

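Cells that fell in no class carried the 9 genes at a low level. In tagged samples 1, 2 and 3 they had Ttr at 243, 238 and 245 CPM, Rbp4 at 278, 258 and 251 CPM, and Afp at 37.2, 40.1 and 36.8 CPM. As a fraction of endoderm, the 9 genes ran from 1.35% (Fgg) to 2.72% (Trf) with a median of 2.54%, against medians of 1.91%, 2.08% and 2.12% in mesoderm, endothelium and erythroid. Their Rbp4 values lay above all those of the 3 other classes, of which the highest was 244 CPM. These 201 cells also held parietal endoderm markers at 58.6, 1456 and 262 CPM summed, against 105 to 117 CPM in endoderm.

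Endoderm cells under 20000 UMIs numbered 19, 8 and 11 in the 3 tagged samples. In tagged sample 1 they had Afp at 1718 CPM against 1114 in the deeper cells, and Ttr at 10424 against 8185. In tagged sample 2 the order was the other way, with Afp at 1911 against 2561 CPM and Ttr at 7063 against 10587. In tagged sample 3 Afp was at 1897 against 2586 CPM. With so few cells no direction is read from these values.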
